A study of Mus musculus with 6 samples.

Results

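The 9 genes described here encode the first and last steps of glycolysis: the hexose transporters Slc2a1, Slc2a3, Slc2a5 and Slc2a6, the hexokinases Hk1, Hk2 and Hk3, and the lactate dehydrogenase subunits Ldha and Ldhb. They are 9 of the 31054 features in a droplet single-cell RNA-seq matrix of mouse cells and were found by their symbols. The set was chosen by pathway and in part selected on the levels of Slc2a5 and Ldhb, which had been seen to mark microglia in these cells, so the values of microglia against other macrophages are given as a description only. The series set out to characterise the embryonic precursors of osteoclasts, which break down bone and derive from macrophage-lineage cells.

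The labels describe 6 samples in 3 groups of 2. The first came from Cx3cr1CreER; R26tdTomato embryos whose mothers were given 4 hydroxytamoxifen at E9.5, and the second from Csf1r-Mer-iCre-Mer; Csf1r-EGFP; R26tdTomato embryos exposed to it at E8.5. Both embryonic groups were collected as macrophage and monocyte lineage cells from whole bodies at E14.5. The third was total bone marrow of wildtype C57BL/6 mice aged 2 months. In the embryos the drug switches on Cre where Cx3cr1 or Csf1r is transcribed, and the recombined cells pass tdTomato on to their progeny. The matrix holds 39048 barcodes and 561415289 unique molecular identifiers (UMIs, each standing for 1 captured transcript), and its barcodes end in a number from 1 to 4 that matches no label. These numbers are called libraries 1 to 4. Cells could not be assigned to a genotype, an age or a drug time, so the matrix is 1 sample and no groups of samples were compared.

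Hexose transporters of the SLC2 family let sugars cross the plasma membrane down their gradient. GLUT1 (Slc2a1) is the widespread glucose transporter and the main one of red cell precursors and of the endothelium of the brain, GLUT3 (Slc2a3) is a high-affinity glucose transporter of neurons, platelets and white blood cells, and GLUT5 (Slc2a5) carries fructose. Hexokinases phosphorylate glucose and so hold it in the cell: HK1 is the general enzyme, HK2 the inducible one and HK3 a form found mostly in blood cells. Lactate dehydrogenase is a tetramer of A and B subunits that interconverts pyruvate and lactate. Tetramers rich in A are usually linked with lactate formation and those rich in B with lactate use.

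On the GRCm38 build, Slc2a5 lies at chr4:150119283-150144169 on the plus strand and Slc2a1 at chr4:119108711-119137983 on the same chromosome and strand. Slc2a3 is at chr6:122727809-122801640 and Slc2a6 at chr2:27021363-27027998, both on the minus strand. Hk1 (chr10:62268855-62379908), Hk2 (chr6:82725025-82774454) and Hk3 (chr13:55005985-55021385) are also on the minus strand. Ldha is at chr7:46841475-46855627 on the plus strand, and Ldhb at chr6:142490249-142507957 on the minus strand. All 9 are protein coding. The models of Slc2a1, Hk1, Hk2 and Hk3 overlap a counted feature on the other strand, which for Hk3 is the protein-coding gene Unc5a. Ldha has 2 named pseudogenes, so part of its reads could have been lost or gained in counting.

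Of the 9 members, 8 matched the RefSeq table of gene starts (GRCm38.p6). The bases before the start are shown for Slc2a5 and Ldhb, the pair past 2-fold between microglia and tissue macrophages on the log2(CPM + 10) scale, and for Ldha, the partner of Ldhb. Capitals mark matches, on either strand, to a GC box (GGGCGG), to the core of a hypoxia response element (ACGTG or GCGTG) or to CACGTG, the E-box found in carbohydrate response elements. Each CACGTG also holds an ACGTG match on both strands. The Slc2a5 and Ldhb stretches end where their gene models begin, and the Ldha stretch lies inside the longer gene model of the annotation.
Slc2a5, chr4:150119094-150119282, plus strand: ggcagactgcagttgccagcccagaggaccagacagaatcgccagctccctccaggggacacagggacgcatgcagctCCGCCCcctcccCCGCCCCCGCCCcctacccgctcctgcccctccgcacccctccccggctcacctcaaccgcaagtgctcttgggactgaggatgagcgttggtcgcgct
Ldhb, chr6:142507958-142508207, minus strand: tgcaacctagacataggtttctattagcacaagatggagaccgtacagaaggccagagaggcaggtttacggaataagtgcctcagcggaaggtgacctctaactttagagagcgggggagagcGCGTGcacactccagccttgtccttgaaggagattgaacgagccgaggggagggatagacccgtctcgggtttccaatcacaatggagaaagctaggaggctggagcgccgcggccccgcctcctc
Ldha, chr7:46845554-46845803, plus strand: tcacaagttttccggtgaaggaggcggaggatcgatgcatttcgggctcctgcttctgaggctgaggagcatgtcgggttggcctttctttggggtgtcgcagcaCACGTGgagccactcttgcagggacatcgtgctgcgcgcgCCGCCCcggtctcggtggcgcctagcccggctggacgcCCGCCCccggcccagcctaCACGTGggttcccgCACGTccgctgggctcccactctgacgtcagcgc
The Slc2a5 stretch held 3 GC boxes and no hypoxia core, and the Ldhb stretch held 1 hypoxia core and no GC box. The Ldha stretch held 5 hypoxia core matches, 2 CACGTG and 2 GC boxes. Among 27025 promoters of 250 bases, 38.6% held the hypoxia core, 32.9% the GC box and 6.05% CACGTG. Another motif searched, GAGGAA, the core bound by the macrophage factor PU.1, stood in 23.1% of them and, among the 8 members, in Hk3 alone.

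Cells were sorted into classes by marker genes that exclude the 9 members. A barcode was kept as a cell with at least 1000 UMIs, at least 500 genes and no more than 10% mitochondrial UMIs, which left 34587 cells, between 7063 and 11959 per library, with library medians of 13077 to 14956.5 UMIs. A marker counted as on in a cell with at least 2 of its UMIs and at least 2 times the mean share, and a cell joined a class when no fewer than 3 of its markers, and no less than 50% of them, were on. This rule placed 15009 cells, while 18536 met no gate and 1042 met several and were left out. Names such as microglia are short for microglia-like by these markers, and 18 classes are described. The largest was tissue macrophages (5647 cells, marked by Lyve1, Mrc1, Folr2 and Stab1), followed by microglia (1652 cells, marked among others by Sall1, P2ry12 and Tmem119). The matrix also held cells outside the labelled lineage, among them mesenchymal (692), erythroid (586), endothelial (233) and neural (218) cells. Neutrophils numbered 902, of which 5 and 6 were in libraries 1 and 2, and B-lineage cells (148) were found only in libraries 3 and 4. Hepatocytes (15, 12, 9 and 29 cells) and neural cells (97, 65, 25 and 31) were found in each of libraries 1 to 4. The labels do not say which libraries, if any, hold bone marrow cells.

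Levels are given as CPM, the UMIs of a gene in all cells of a class per 1000000 UMIs of those cells. Intervals are exact Poisson 95% intervals and cover counting error only. A library's value is used where it holds at least 30 cells of the class, and the spread over the 4 libraries is the only replicate error available. It has no link to animals known from the labels. In a pooled class, fewer expressing cells and less RNA per cell cannot be told apart.

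**Figure D1:**
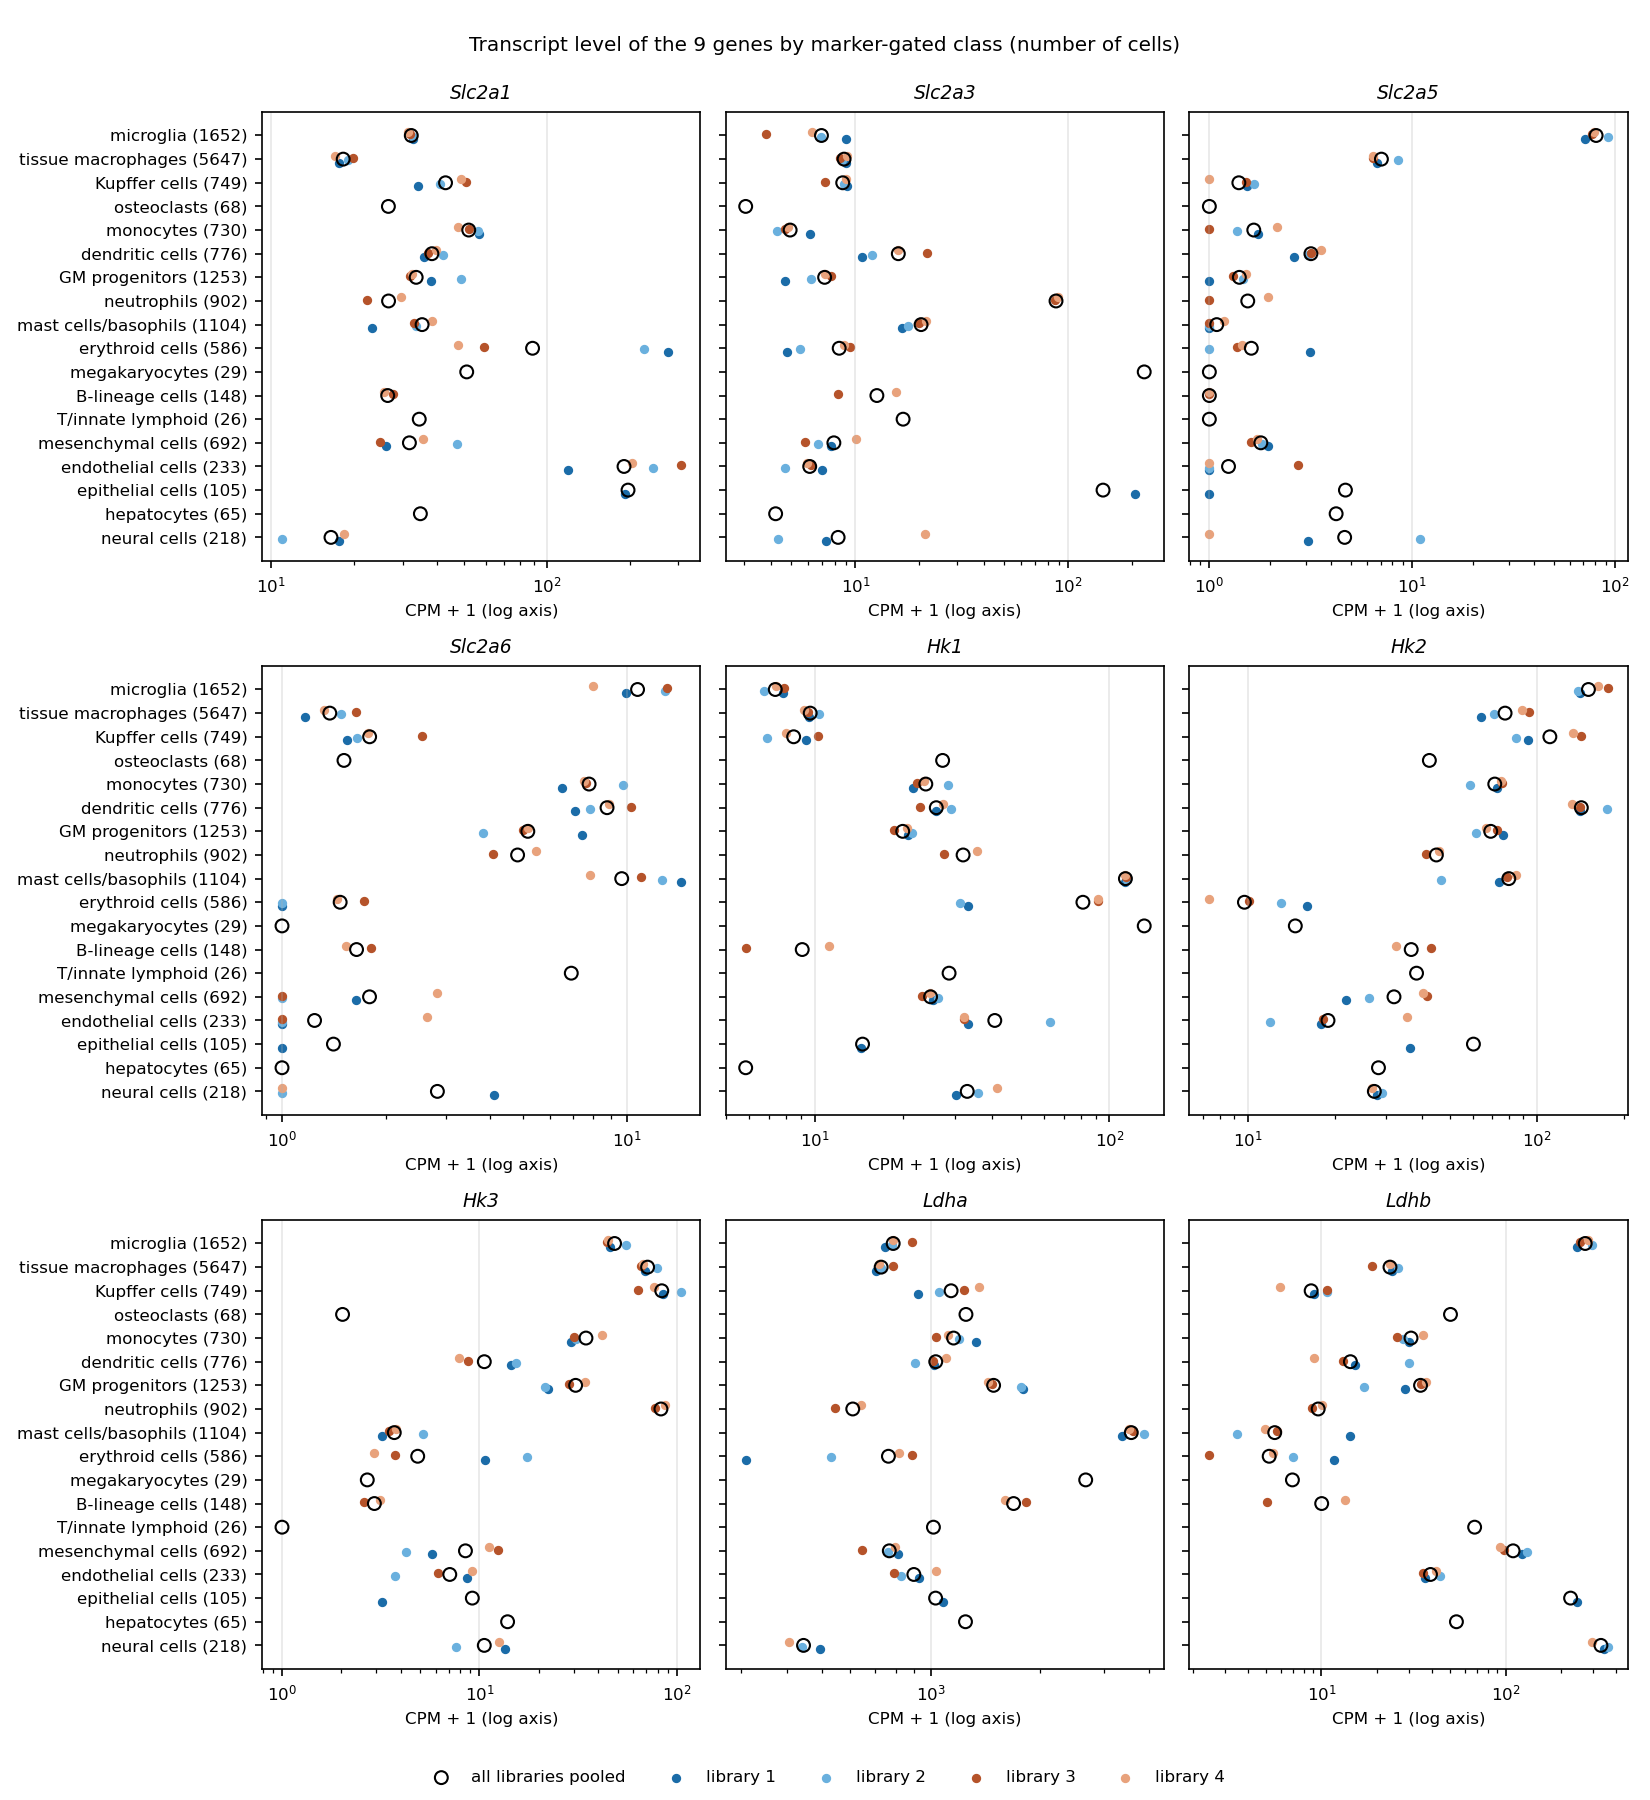
Level of each gene in 18 marker-gated classes, as CPM + 1 on a log axis; open circles pool all libraries and filled points are single libraries with at least 30 cells of the class. Slc2a5 stands apart in microglia and Ldhb in microglia, neural and epithelial cells, while Ldha spans a narrower range than the other genes.

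Among the transporters, Slc2a1 was the most even. It ran from 15.5 CPM in neural cells and 17.3 in tissue macrophages to 189 in endothelial cells (interval 176 to 203) and 196 in epithelial cells. In endothelial cells the 4 libraries gave 118, 241, 304 and 202 CPM, all above every library of monocytes (46.4 to 55.6), Kupffer cells (33.2 to 49.9), microglia (30.4 to 31.8) and tissue macrophages (16.0 to 18.9). They overlapped those of erythroid cells (46.8 to 274), the next class by pooled level at 87.8 CPM. Endothelial cells drew 97.1% of their transporter UMIs from Slc2a1. UMIs of the 3-prime method are not divided by transcript length, so shares within a family were compared between classes and not read as enzyme amounts.

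Slc2a3 was low in most classes and high in a few. Megakaryocytes (29 cells) held 226 CPM and epithelial cells 145. Neutrophils held 86.6, with 85.3 and 88.5 in libraries 3 and 4, the only ones with enough neutrophils. The next class with library values, mast cells or basophils at 19.4 CPM, did not overlap neutrophils. Slc2a3 made up 81.8% of transporter UMIs in megakaryocytes and 74.2% in neutrophils. In tissue macrophages, Kupffer cells, microglia and monocytes it lay between 3.94 and 7.85 CPM, and the libraries of neighbours in that order overlapped.

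Slc2a5 was found at 79.8 CPM in microglia (interval 75.9 to 83.9), with 70.5, 91.4, 76.0 and 78.1 in libraries 1 to 4. Tissue macrophages came next, at 6.06 CPM and between 5.4 and 7.48 by library, so the 2 classes did not overlap. The next pooled level, in epithelial cells, was 3.69 CPM. Kupffer cells, the macrophages of the liver, held 0.398 CPM, and osteoclasts held no Slc2a5 UMI, which allows up to 1.54 CPM. Slc2a5 supplied 63.0% of transporter UMIs in microglia and 19.2% in tissue macrophages.

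Slc2a6, a transporter of lysosomal membranes, stayed below 10 CPM in every class with the libraries pooled. Its highest pooled levels were in microglia (9.75 CPM), mast cells or basophils (8.67), dendritic cells (7.77) and monocytes (6.78), and the libraries of these 4 neighbours overlapped. Tissue macrophages held 0.376 CPM and Kupffer cells 0.796. Microglia libraries (6.96 to 12.1 CPM) lay above all libraries of tissue macrophages (0.170 to 0.639).

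**Figure D2:**
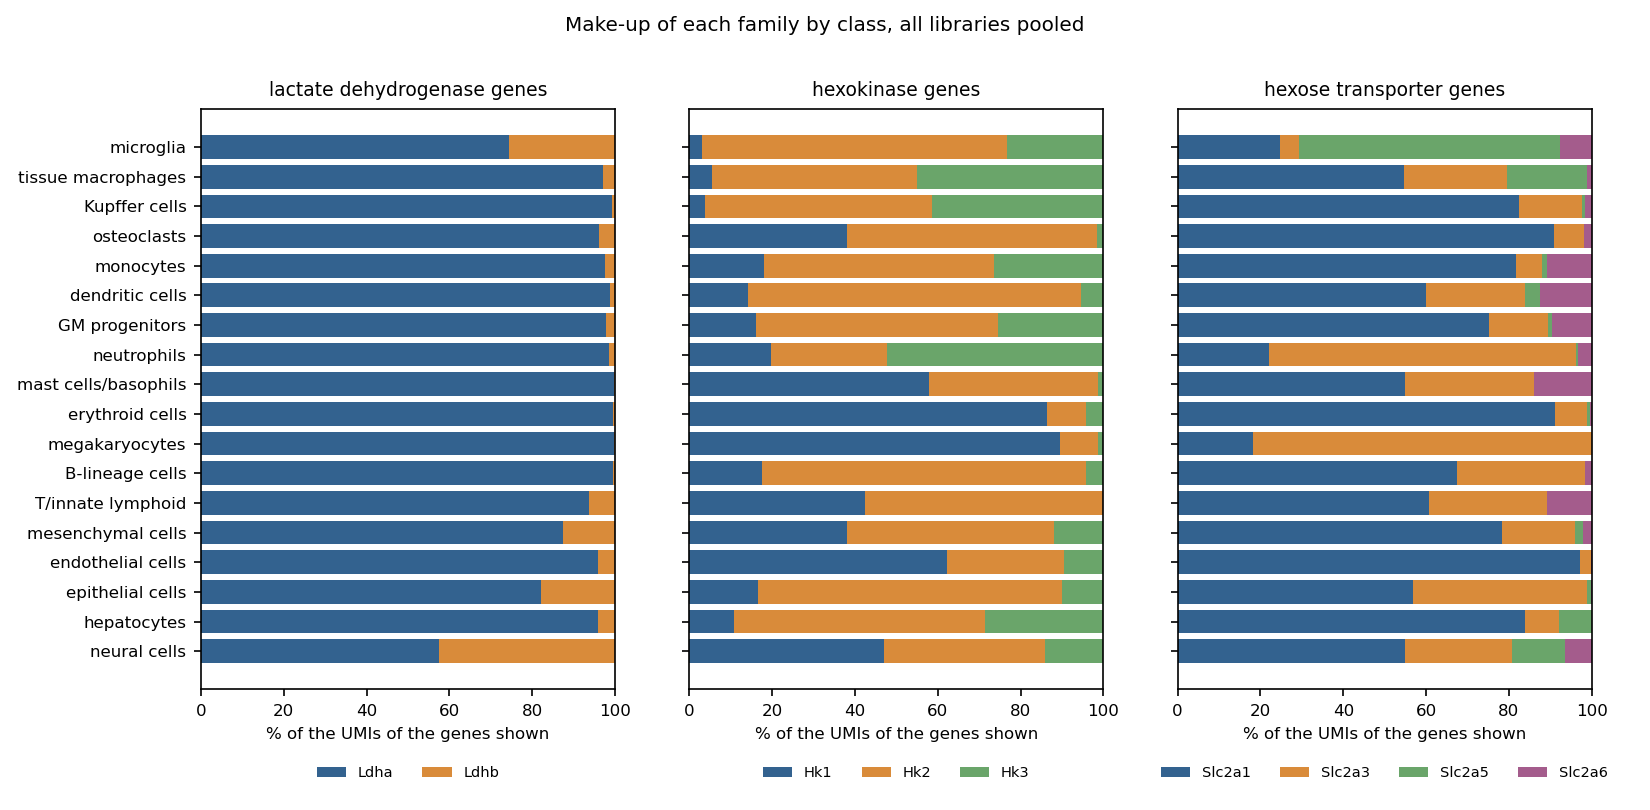
Share of each family's UMIs taken by each member in 18 classes, all libraries pooled. Ldhb makes up 25.5% of lactate dehydrogenase UMIs in microglia and 42.5% in neural cells, Hk1 most hexokinase UMIs in erythroid cells and megakaryocytes, and Slc2a5 63.0% of transporter UMIs in microglia.

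The 3 hexokinase genes divided the classes between them. Hk1 was highest in megakaryocytes (130 CPM), mast cells or basophils (112, with 112, 114, 113 and 112 by library) and erythroid cells (80.3). It was low in macrophages, at 8.65 CPM in tissue macrophages, 7.48 in Kupffer cells and 6.35 in microglia, as it was in B-lineage cells (8.07) and hepatocytes (4.83). Hk1 made up 89.5% of hexokinase UMIs in megakaryocytes, 86.4% in erythroid cells and 57.9% in mast cells or basophils, against 3.11% in microglia.

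Hk2 was highest in microglia (150.1 CPM, libraries 138 to 175) and dendritic cells (142, libraries 131 to 175), whose libraries overlapped. Kupffer cells followed at 110.1 CPM, mast cells or basophils at 79.1 and tissue macrophages at 76.8. In tissue macrophages libraries 3 and 4 (93.1 and 88.3 CPM) were above libraries 1 and 2 (63.4 and 70.5), and the same split was seen in microglia (175 and 162 against 141 and 138) and Kupffer cells (141 and 132 against 92.0 and 84.0). Erythroid cells held the least, 8.75 CPM. Hk2 gave 80.5% of hexokinase UMIs in dendritic cells and 73.7% in microglia.

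Hk3 was highest in phagocytes. It reached 82.7 CPM in Kupffer cells, 82.0 in neutrophils and 70.0 in tissue macrophages, with overlapping libraries, and 47.3 in microglia and 33.6 in monocytes. Dendritic cells held 9.58 CPM, mast cells or basophils 2.70 and osteoclasts 1.03. Hk3 made up 52.3% of hexokinase UMIs in neutrophils, 45% in tissue macrophages and 41.3% in Kupffer cells, but 1.49% in osteoclasts (4.72% in Leiden clusters).

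Ldha had the most UMIs of the 9 genes in every class. It was highest in mast cells or basophils, at 3362, 3881, 3605 and 3532 CPM in libraries 1 to 4, and in megakaryocytes at 2675. B-lineage cells held 1692 CPM, granulocyte-monocyte progenitors 1489.6, monocytes 1155 and Kupffer cells 1137. Microglia (787), erythroid cells (763) and tissue macrophages (729) were lower, and neutrophils (608) and neural cells (445) lowest. Neither of the last pair overlapped the class ranked just above it, but the erythroid libraries (308 to 884 CPM) overlapped both.

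Ldhb varied far more. Neural cells held 329 CPM (interval 305 to 354), microglia 269.8 (263 to 277), epithelial cells 225 and mesenchymal cells 109. Neural cells also held 1793 CPM of the 8 tissue macrophage markers and 243 CPM of the 8 microglia markers, and the part of these in their Ldhb was not tested. The neural libraries with enough cells (343, 359 and 292 CPM) overlapped those of microglia (244, 294, 252 and 278). Tissue macrophages held 22.6 CPM, Kupffer cells 7.80, mast cells or basophils 4.58 and erythroid cells 4.20. As a share of lactate dehydrogenase UMIs, Ldhb was 25.5% in microglia (22.2% to 27.3% by library), 3.01% in tissue macrophages, 0.681% in Kupffer cells and 0.128% in mast cells or basophils. With Leiden clusters in place of the gates it was 14.8% in microglia and 3.51% in tissue macrophages.

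Pairs of classes were compared on the scale log2(CPM + 10), where differences of low genes come out too small, and a gene was called past 2-fold at a difference of at least 1. All genes with at least 100 UMIs over both classes were compared in the same way to give the background. With 1 sample, no p-value was computed. Where a median over all genes is given, it is the general shift of the pair, against which a single difference can be read.

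**Figure D3:**
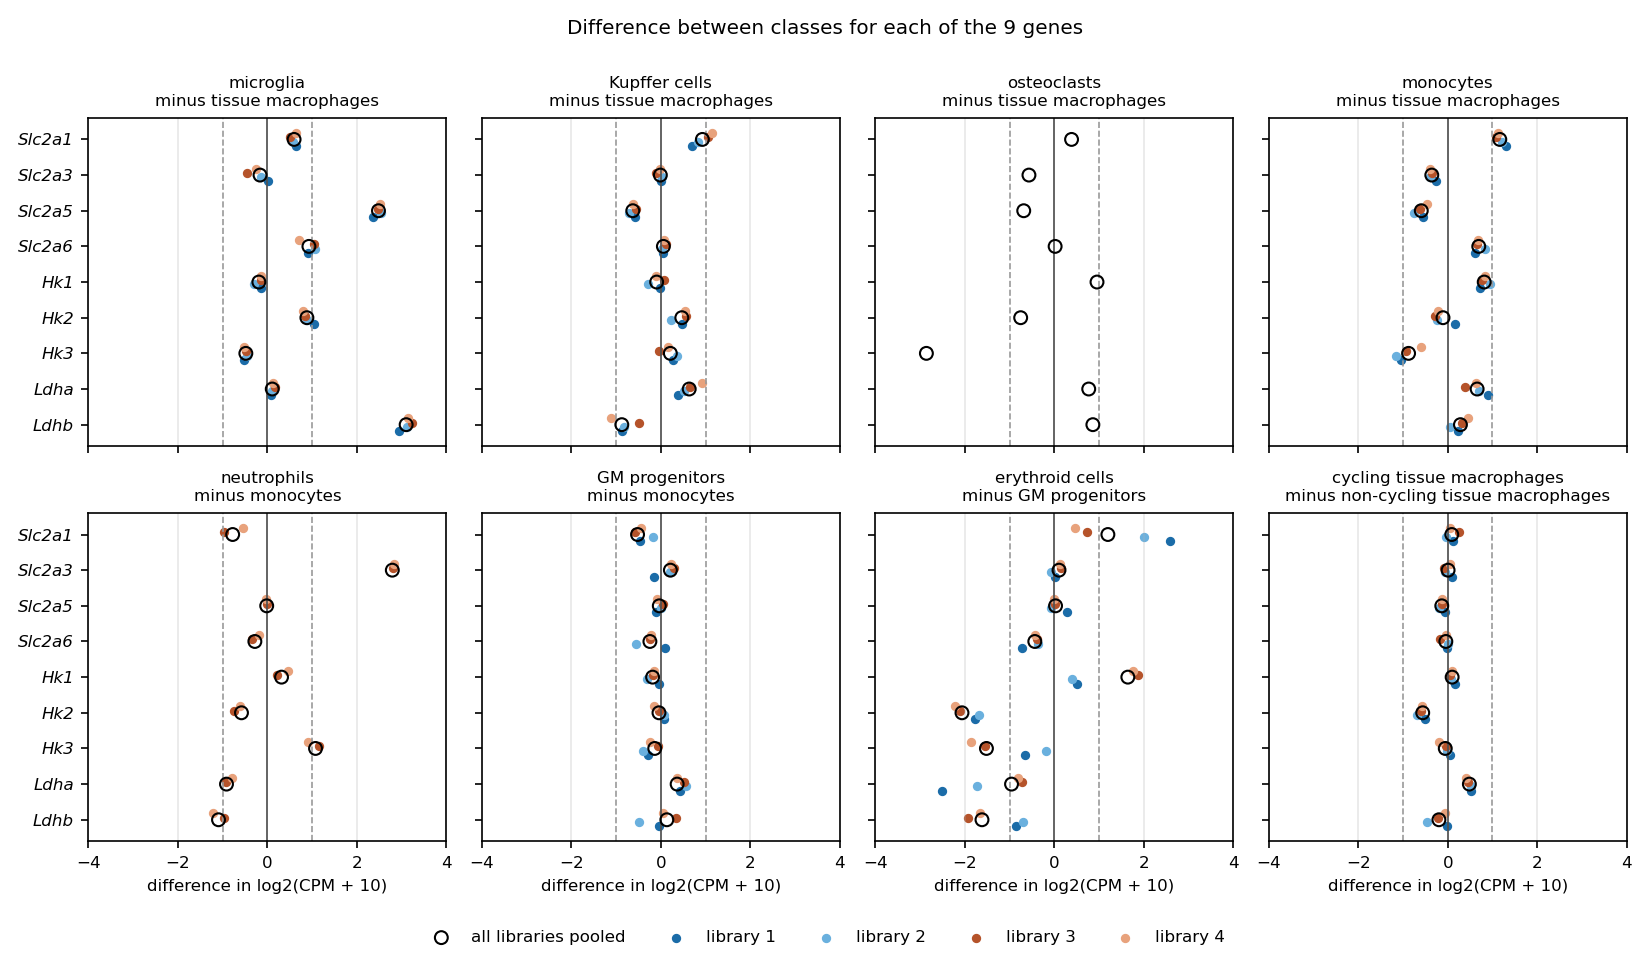
Difference of each gene between 2 classes in log2(CPM + 10) for 8 comparisons; open circles pool all libraries, filled points are libraries with at least 30 cells of both classes, and dashed lines mark 2-fold. Slc2a5 and Ldhb lie past the line in microglia, Hk3 far to the left in osteoclasts, and the erythroid points of libraries 1 and 2 lie apart from those of libraries 3 and 4.

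Microglia against tissue macrophages is the comparison from which Slc2a5 and Ldhb were chosen. Of the 9 members, 2 were past 2-fold, both higher: Ldhb at +3.10 (2.94 to 3.23 by library; 12 times the CPM) and Slc2a5 at +2.48 (2.36 to 2.54; 13.2 times). Of 11293 genes, 1.6% were past it in this direction and 1.03% in the other. Just outside it on this scale was Slc2a6 (+0.93), which just reached 2-fold without library 4. Its ratio of CPM was the largest of the 9, 25.9 times, at levels of 9.75 against 0.376 CPM that the pseudocount of 10 outweighs. Hk2 followed at +0.88. Slc2a1 differed by +0.60 with all 4 libraries in that direction (31.7, 31.8, 31.0 and 30.4 CPM against 16.6, 18.1, 18.9 and 16.0). Hk3 differed by -0.48 and also did not overlap (43.5 to 54.3 CPM against 64.8 to 78.6). Ldha differed by +0.11.

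No measured gene of the other pathway lists was past 2-fold between these classes on the log2(CPM + 10) scale. This held for all 13 genes from glucose-6-phosphate to pyruvate, all 13 of lactate and pyruvate transport and pyruvate entry, all 7 of the pentose phosphate pathway, 10 of the hypoxia response and 4 of fructose metabolism. The median of the glycolysis list was +0.06 and that of all genes -0.04.

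Markers of neural cells, summed over 7 genes, were 23.1 CPM in microglia (14.1 to 27.1 by library, 1 of them at 0). In tissue macrophages they were 92.6 CPM (59.5 to 131, none at 0). Neural cells were the class highest in Ldhb, and the part of neural transcripts in the Ldhb of either class was not tested. Genes of the dissociation stress response summed to 6246 to 8551 CPM in the microglia libraries and 5581 to 5955 in those of tissue macrophages, and their part in these values was not tested. Microglia still held 1585 CPM of the 8 tissue macrophage markers, and tissue macrophages 547 CPM of the 8 microglia markers.

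The pair was also followed along the number of microglia markers on, from 0 to 6 of the 7 used in the gate, in microglia, tissue macrophages and ungated cells. Slc2a5 stood at 2.05, 6.03, 8.99, 15.4, 41.3, 111 and 145 CPM, and Ldhb at 19.0, 30.8, 41.0, 75.8, 194, 330.3 and 391 CPM. Both were higher at each of these steps in the pooled cells. The pair was chosen because it marks microglia in these cells, so a rise with microglia markers follows from the choice. Only 6 cells had all 7 markers on, with 26.0 CPM of Slc2a5 and 325 of Ldhb. The gate admits cells from 4 markers on, so 1212 cells with 3 markers lay just outside it and 806 with 4 just inside. Hk2 was 77.1 CPM with no marker on and 177 with 6, and Slc2a6 2.71 and 10.4. The step at 6 markers rests on 129 cells, and median depth was 14322 UMIs with no marker on and 11777 with 6.

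**Figure D4:**
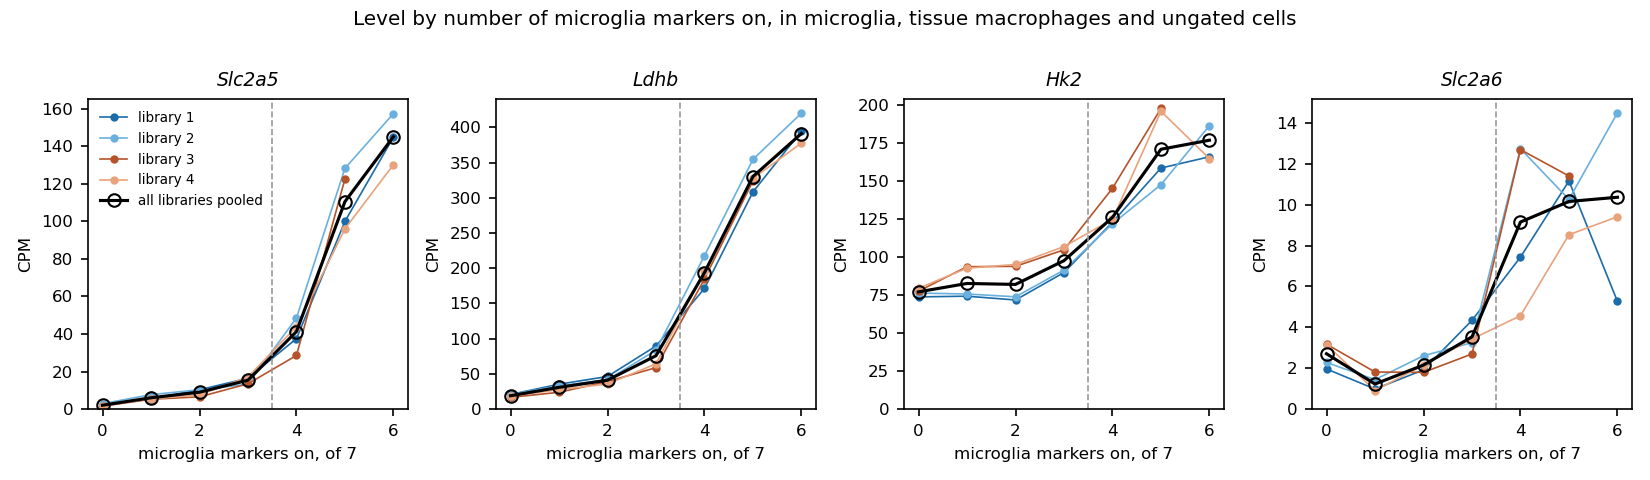
CPM of Slc2a5, Ldhb, Hk2 and Slc2a6 against the number of microglia markers on, in libraries with at least 30 cells at that number and pooled; the dashed line is the gate. Up to 6 markers, Slc2a5 and Ldhb, which were chosen as marking microglia, are higher with each further marker in the pooled cells. Hk2 is higher from 2 markers upward, and Slc2a6 is near 10 CPM from 4 markers on.

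At least 1 Slc2a5 UMI was seen in 46.0% of microglia (median 10389 UMIs per cell) and 6.98% of tissue macrophages (12832), against 0.534% of Kupffer cells (14464) and 0.443% of neutrophils (6228.5). With 5000 UMIs drawn from every cell, and 151 microglia and 444 tissue macrophages set aside as too shallow, the shares were 29.6% (exact binomial 95% interval 27.3% to 32.0%) and 3.21% (2.75% to 3.73%), and 0 of 661 Kupffer cells had a Slc2a5 UMI. Ldhb was seen in 62.0% of thinned microglia and 9.92% of thinned tissue macrophages, against 77.5% and 22.5% before thinning. For comparison, 3.09% of thinned neutrophils, a class low in Ldhb, had an Ldhb UMI.

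Within the microglia gate, the 1159 cells with a tdTomato UMI held more Slc2a5 than the 493 without (92.2 against 52.1 CPM) and more Ldhb (299.8 against 203). The direction was the same in each library: for Slc2a5, 77.4 against 61.8, 105 against 60.3, 86.1 against 38.2, and 93.4 against 25.7 CPM. Summed microglia markers differed in the same way (6183 against 4455 CPM) and tissue macrophage markers the other way (1470 against 1842), and their part in the difference was not tested. In tissue macrophages, Slc2a5 was 6.32 CPM with a tdTomato UMI and 5.69 without. A cell without a tdTomato UMI is not thereby an unlabelled cell, since a transcript can be missed. A tdTomato UMI was also seen in 23.8% of mesenchymal, 27.5% of neural and 35.2% of epithelial cells. Having such a UMI therefore does not by itself make a cell a labelled one.

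On the log2(CPM + 10) scale, Kupffer cells and tissue macrophages differed by less than 2-fold in all 8 measured members. Few of all 11187 genes were past it either, 2.22% as higher and 2.29% as lower. Slc2a1 came closest, at +0.93 (33.2, 40.1, 49.9 and 47.8 CPM in Kupffer cells), and reached +1.01 without library 1. As a ratio of CPM it was 2.43 times higher. Slc2a5 was 15.2 times higher in tissue macrophages by that ratio (6.06 against 0.398 CPM) and differed by -0.63 on the log2 scale. Slc2a6 had too few UMIs to be compared. Ldhb was lower by 0.87, at 8.10, 9.77, 9.77 and 4.94 CPM, and no Kupffer library reached the lowest one of tissue macrophages (17.9). Ldha was higher by 0.63, at 923, 1055, 1235 and 1358 CPM, again without overlap. In the rest of the pathway, Taldo1 (transaldolase, of the pentose phosphate pathway) was 1.33 higher, at 686 against 267 CPM, and 1 of 11 hypoxia response genes was past 2-fold.

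Osteoclasts differed most from tissue macrophages in Hk3. In the 68 osteoclasts, Hk3 had 2 UMIs, or 1.03 CPM (interval 0.124 to 3.71), against 70.0 in tissue macrophages, a log2 difference of -2.86. By library the osteoclast values were 2.31, 0, 0 and 1.22 CPM, from 14, 10, 16 and 28 cells, and none came near the lowest tissue macrophage library (64.8). It was the only one of 8 members measured to pass 2-fold, where 8.34% of 11023 genes were lower and 4.65% higher by as much. Among the other members, Hk1 was higher by 0.96 (26.2 against 8.65 CPM), Ldhb by 0.86 (49.2 against 22.6) and Ldha by 0.77, and Hk2 was lower by 0.75. Hk1 passed 2-fold without library 1 (1.04) and without library 4 (1.03).

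Around the members in osteoclasts, 3 of 13 glycolysis genes and 4 of 13 genes of pyruvate handling were higher and none lower. Pdhb and Dlat, subunits of the pyruvate dehydrogenase complex, were higher by 1.72 (222 against 60.6 CPM) and 1.33 (89.8 against 29.6). Eno1 (enolase) was higher by 1.39 and shares nearly its whole sequence with the copy Eno1b, so its count is uncertain. Of the 4 fructose genes measured, 2 were lower: Khk, fructokinase, by 1.96 (18.5 against 101 CPM) and Sord, which makes fructose from sorbitol, by 1.78 (13.8 against 72.1). Slc2a8, an intracellular hexose transporter, was lower by 1.43 and G6pdx, the entry enzyme of the pentose phosphate pathway, by 1.26, while Mif, counted with the hypoxia response genes, was higher by 1.72. Of all genes past 2-fold in this comparison, 35.8% were higher, and 46.4% when globin, mitochondrial and ribosomal protein genes were left out of the total. No library held 30 osteoclasts, so these values have no spread over libraries.

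Monocytes held 51.1 CPM of Slc2a1 against 17.3 in tissue macrophages, a difference of +1.16 (1.08 to 1.30 by library). The monocyte libraries gave 55.6, 55.5, 51.1 and 46.4 CPM, all above the highest tissue macrophage library. It was the only one of 9 members past 2-fold, where 4.16% of 11212 genes were higher and 6.13% lower by as much. Hk3 was lower by 0.88 (28.2, 29.9, 29.2 and 40.9 CPM), and by 1.05 without library 4. Hk1 was higher by 0.82, Ldha by 0.66 and Slc2a6 by 0.69.

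Of the wider pathway in monocytes, 5 of 13 glycolysis genes and 5 of 7 pentose phosphate genes were past 2-fold, all higher. Pfkp, a phosphofructokinase, was higher by 1.86 (66.2 against 10.9 CPM), Taldo1 by 1.93 (1051 against 267), Rpia, a pentose phosphate isomerase, by 1.66, and the lactate exporter Slc16a3 by 1.56 (149 against 44.0). Txnip, a restraint on glucose uptake, was lower by 1.80, Slc2a8 by 1.79, Sord by 1.48 and Slc16a7, a monocarboxylate carrier, by 1.03. The median of all genes was -0.12 and became -0.02 with TMM scaling, which turned the share of called genes that were higher from 40.4% to 52.4%.

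Neutrophils against monocytes had 3 of 8 members past 2-fold, 2 higher and 1 lower, where 3.19% of 8210 genes were higher and 12.9% lower by as much. Slc2a3 was higher by 2.79, or 22.0 times the CPM (86.6 against 3.94). Hk3 was higher by 1.08 (82.0 against 33.6 CPM), and by 0.99 when both classes were taken from libraries 3 and 4 alone. Ldhb was lower by 1.09 (8.61 against 29.7). Ldha was lower by 0.91, and without library 4 both Ldha (-1.06) and Slc2a1 (-1.02) were past 2-fold.

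The share of cells with a Slc2a3 UMI was 42.7% of neutrophils against 6.85% of monocytes, and 36.1% against 2.5% at 5000 UMIs per cell, a depth that 351 of the neutrophils did not reach. Neutrophils are dominated by a few transcripts: the 8 markers of their gate made up 259109 CPM, and monocytes held 18515 CPM of them. The median of all genes was -0.45, and -0.20 with TMM scaling or -0.63 when globin, mitochondrial and ribosomal protein genes were left out. The share of called genes that were higher was 19.8%, 52.1% and 11.3% in these 3 scalings. Slc2a3 stayed past 2-fold in all of them, Ldhb differed by -0.88 with TMM and Hk3 by +0.92 without those genes.

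Among the other genes, 3 of 10 glycolysis genes were lower in neutrophils and none higher: Pfkp by 1.52 (16.5 against 66.2 CPM), Tpi1 by 1.16 (249 against 567) and Pgk1 by 1.11 (377 against 824). Akr1b3, which reduces glucose to sorbitol, was lower by 1.51. None of 7 pentose phosphate genes was past 2-fold.

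Granulocyte-monocyte progenitors against monocytes showed none of 8 measured members past 2-fold, where 3.71% of 9807 genes were higher and 4.89% lower by as much. The widest gaps were Slc2a1, lower by 0.52, and Ldha, higher by 0.36 (1796, 1769, 1473 and 1436 CPM against 1329.7, 1192, 1034 and 1114 by library). Their Hk2 (68.4 against 70.6 CPM) and Hk3 (29.7 against 33.6) were nearly level. Around them, the lactate carrier Slc16a1 was higher by 1.57 (35.9 against 5.47 CPM) and Slc16a3 lower by 1.22 (58.4 against 149). Myc was higher by 2.1, Mif by 1.88 and the hypoxia-induced hydroxylase Egln3 by 1.22, and Taldo1 was lower by 1.03. Of all genes called, 43.1% were higher, and 55.3% without globin, mitochondrial and ribosomal protein genes in the total.

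Erythroid cells against granulocyte-monocyte progenitors had the most members past 2-fold, 5 of 8 with 2 higher and 3 lower, where 3.89% of 9852 genes were higher and 10.6% lower by as much. Hk1 was higher by 1.64 (80.3 against 18.9 CPM) and Slc2a1 by 1.2 (87.8 against 32.6). Hk2 was lower by 2.06 (8.75 against 68.4), Ldhb by 1.62 (4.20 against 33.5) and Hk3 by 1.52 (3.87 against 29.7). The hexokinase make-up differed with them, Hk1 giving 86.4% of hexokinase UMIs in erythroid cells and 16.1% in the progenitors. By library the share ran from 51.3% to 91.6% in erythroid cells and from 15% to 20.1% in the progenitors, without overlap.

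The 4 libraries did not hold the same erythroid cells. Slc2a1 was 274 and 224 CPM in libraries 1 and 2 and 58.3 and 46.8 in libraries 3 and 4, whereas Hk1 was 32.2 and 30 against 90.4 in both of the others. Ldha was 308 and 529.5 CPM against 884 and 814. In the same cells globin genes took 58.6% and 41.4% of UMIs in libraries 1 and 2, and 10.7% and 15% in libraries 3 and 4. Alas2, an erythroid enzyme of haem synthesis, was 1173 and 851 CPM against 176 and 241, and the erythroid factor Klf1 196 and 278 against 594 and 507. Median depth was 16201.5 and 13033.5 UMIs against 31018.5 and 29483.5. Tissue macrophage markers summed to 582, 293, 111 and 228 CPM. The part of these differences in the member values was not tested, except for the globin load: with globin, mitochondrial and ribosomal protein genes taken out of the total, Slc2a1 was 902, 526, 97 and 82.1 CPM, Hk1 106, 70.7, 150.3 and 159, and Ldha 1014, 1247, 1470.1 and 1427.

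**Figure D5:**
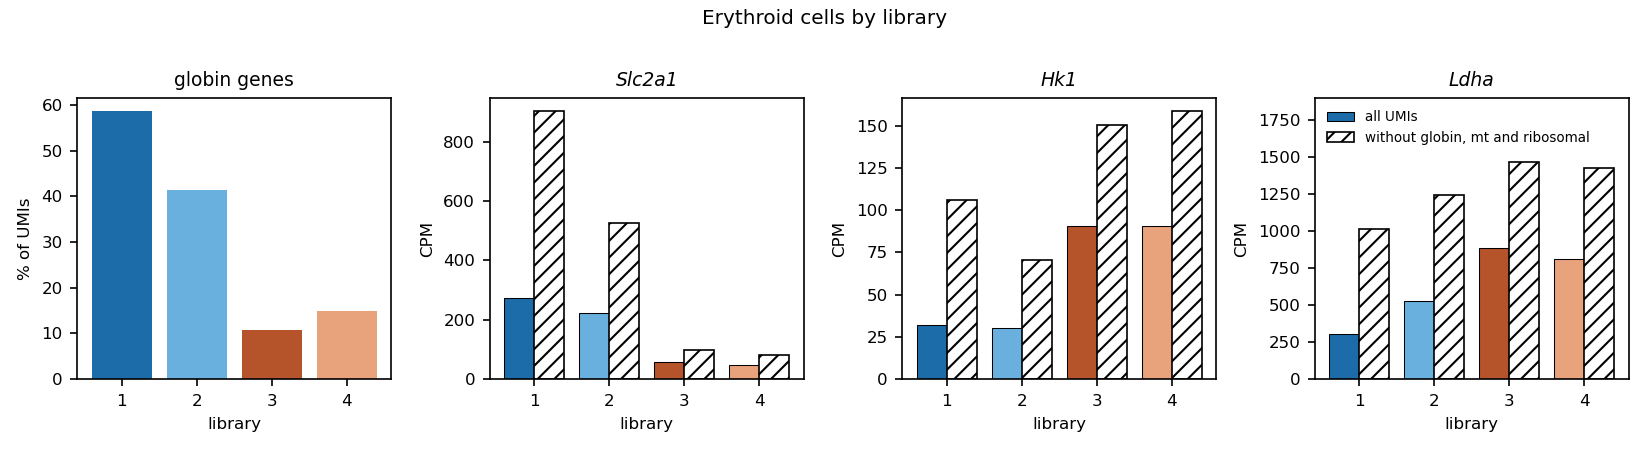
Erythroid cells in libraries 1 to 4: globin genes as percent of all UMIs, and CPM of Slc2a1, Hk1 and Ldha over all UMIs (filled) and over UMIs without globin, mitochondrial and ribosomal protein genes (hatched). Slc2a1 is high where the globin share is high, and Hk1 where it is low, in both scalings.

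The erythroid differences depended on these libraries. Slc2a1 differed by +2.37 in libraries 1 and 2 alone, +0.59 in libraries 3 and 4 alone and +0.74 without library 1. Hk1 (+0.47), Ldhb (-0.71) and Hk3 (-0.52) were under 2-fold in libraries 1 and 2 alone. Hk2 was lower by at least 1.68 in each library. Ldha was lower by 0.96 in all libraries and past 2-fold without library 3 (-1.10) or library 4 (-1.09). The median of all genes was -0.23, and -0.05 with TMM scaling or -0.03 without globin, mitochondrial and ribosomal protein genes, and 26.9% of called genes were higher, or 42.0% in both of those scalings.

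Most of the other glycolysis genes were lower in erythroid cells: of 13 measured, 8 were lower and 2 higher. Pklr, the pyruvate kinase of liver and red cells, was 147 against 0.947 CPM (+3.85), and Pfkm, a phosphofructokinase, 31.1 against 4.73 (+1.48). Pkm, the other pyruvate kinase gene, was lower by 2.51, Pgam1 by 2.44, Pfkp by 1.98 and Aldoa by 1.72. Sord was higher by 1.94 and Pck2, mitochondrial phosphoenolpyruvate carboxykinase, by 1.05, and 3 of 7 pentose phosphate genes were lower.

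Cycling tissue macrophages (1251 cells with at least 4 of 8 proliferation markers on) and non-cycling ones (3581 cells with at most 1) differed by less than 2-fold in all 8 measured members, where 1.99% of 10711 genes were past it as higher and 0.0654% as lower. Ldha was higher in cycling cells by 0.48, at 856, 894, 910.0 and 820 CPM against 591, 621, 663 and 619. Hk2 was lower by 0.56, at 47.1, 46.7, 69.9 and 65.2 CPM against 71.3, 81.6, 112 and 102. The libraries did not overlap for Ldha, and for Hk2 the cycling value was below the non-cycling one in each of the 4. Median depth was 18507 UMIs in cycling and 11220 in non-cycling cells. No measured gene of the other pathway lists was past 2-fold.

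A further 3 comparisons were chosen after the levels had been seen and are given as descriptions. Mast cells or basophils against granulocyte-monocyte progenitors had 4 of 8 members past 2-fold, where 4.87% of 10333 genes were higher and 3.65% lower by as much: Hk1 was higher by 2.08 (2.03 to 2.16 by library) and Ldha by 1.26, and Hk3 was lower by 1.64 and Ldhb by 1.58. Of 14 glycolysis genes measured, 1 was higher and 1, Pgam1 at -1.07, lower. G6pdx was lower by 1.59, Bnip3, a hypoxia-induced mitochondrial protein, by 1.30, and Pdk1, a kinase that restrains pyruvate entry, by 1.22.

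Endothelial against mesenchymal cells had 2 of 5 measured members past 2-fold, where 5.33% of 9530 genes were higher and 7.78% lower by as much. Slc2a1 was higher by 2.29 (1.87 to 3.21 by library) and Ldhb lower by 1.31 (38.1 against 109 CPM). Of the other genes, the hypoxia factor Epas1 was higher by 2.74 (67.5 against 1.59 CPM). The leading gene of the endothelial class was Ccl21a, a chemokine of lymphatic vessels. Dendritic cells against monocytes had 1 of 8, where 2.9% of 8902 genes were higher and 2.06% lower by as much: Hk3 was lower by 1.16 (13.4, 14.4, 7.76 and 6.89 CPM against 28.2, 29.9, 29.2 and 40.9). Hk2 was higher by 0.91, and Slc2a3 by 0.84. Pgk1, Pgd, Slc16a3 and Aldoa were lower by 1.26, 1.29, 1.32 and 1.02.

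Across the 48 sums of a class in a library with at least 30 cells, 9967 genes were ranked by the likeness of their log2(CPM + 10) to each of 8 members, Slc2a6 being left out because it reached 20 CPM in no class. The points share libraries, and classes with several libraries count several times, so the coefficients are descriptions. Slc2a5 was most like Sall1 (Pearson r = 0.97), Siglech (0.96), Rtn4rl1 (0.96), Lag3 (0.92) and P2ry12 (0.92). Sall1, Siglech and P2ry12 were markers of the microglia list, and Sall1 and P2ry12 were used in the gate. Slc2a5 was chosen in part for its level in microglia, so its likeness to them follows from these choices and is not a result. Ldhb was most like Irf2bpl (0.88), Camk2n1 (0.86), Serpine2 (0.84), Csnk1e (0.83) and Pmepa1 (0.81), none of them a microglia marker used here.

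For Hk2 the nearest were Laptm5 (0.91) and Syngr2 (0.90), for Hk3 Dram1 (0.88) and Cd84 (0.87), for Ldha Rfc2 (0.89) and Kyat3 (0.88), and for Slc2a3 Sytl1 (0.89) and Ankrd22 (0.84). Hk1 (Acyp1, 0.79) and Slc2a1 (Cd59a, 0.74) had no gene as close. Among the members themselves, the highest coefficients were Slc2a6 with Hk2 (0.62) and Slc2a5 with Ldhb (0.57), and the lowest was Hk1 with Hk3 (-0.64). Ldha and Ldhb gave -0.44.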

How the data were processed

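The authors deposited raw UMI counts as 1 pooled matrix. Software version 3.0.1 wrote it, per the file headers, although Cell Ranger 2.1.1 is the version in the submitters' processing notes, with mm10 as the genome build. The aligner settings are not given in the sources used here, and neither is the map from barcode numbers to samples. Libraries held 106500620 to 198754246 UMIs. Filters removed 4461 barcodes. No doublet caller was run. Cells that met several gates were left out, and 761 barcode sequences occurred in more than 1 library. The skeletal muscle gate was dropped because heart genes led it, and 5 markers shared by 2 lists were not used.

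The 9 genes, the pathway lists and the markers were chosen with earlier results of these data known. The gate rule was set after the cells and the values of the members had been seen. The text names all 9 genes, and of the pathway lists up to 4 genes per direction and comparison that were past 2-fold, reached 20 CPM and had the same sign in every library with 30 cells of both classes. The 5 nearest genes per member left out ribosomal, mitochondrial and predicted genes. Counts were summed per class and library in Python 3.11.15 (scipy 1.17.1, pandas 2.3.3). The calls were run on simulated class sums with counting error only and planted changes well above 2-fold in genes of at least 20 CPM. That run does not bear on calls near 2-fold, on lower genes or on the spread between libraries. Alternatives included Leiden clusters (scanpy 1.11.5, leidenalg 0.10.2) and TMM factors (edgeR 4.0.16). Floors and intervals cover counting error only. Promoters come from RefSeq.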

Additional observations from a re-analysis of the deposited data

How the results depend on the processing

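No paired analysis was possible because the barcodes could not be tied to samples, so the replicate numbers of the labels have no columns. Of the 8 comparisons, those of microglia, of granulocyte-monocyte progenitors and of cycling cells kept their number of members past 2-fold within 1.5 times under every alternative run. With a pseudocount of 1 CPM the count was 3 for Kupffer cells, 5 for osteoclasts and 5 for monocytes, and with 50 CPM it was 0 for monocytes, 1 for neutrophils and 1 for erythroid cells. With 1 more marker in the gates it was 2 for osteoclasts and 2 for monocytes. In osteoclasts it was 3 without the deepest 5% of cells and 3 without globin, mitochondrial and ribosomal protein genes in the total, and in erythroid cells 3 in libraries 1 and 2 alone. The cause was not tested. Ldhb as a share of lactate dehydrogenase UMIs in microglia was 29.3% with 1 more marker and 14.8% in Leiden clusters, where clusters of 3046 and 1305 cells made up the microglia, and 3.51% in tissue macrophages of those clusters. Slc2a5 as a share of transporter UMIs in microglia was 69.7% and 46.6%, and Hk3 as a share of hexokinase UMIs in osteoclasts 4.72% in Leiden clusters.

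Leaving out each library in turn gave 2 to 3 members past 2-fold for microglia, 0 to 1 for Kupffer cells, 1 to 2 for osteoclasts, 1 to 2 for monocytes, 3 to 5 for neutrophils, 4 to 6 for erythroid cells and 0 in the other comparisons. The shares ranged from 24.7% to 26.1% for Ldhb in microglia, 2.89% to 3.19% for Ldhb in tissue macrophages, 62.0% to 64.4% for Slc2a5 in microglia, 43.3% to 46.5% for Hk3 in tissue macrophages, 81.5% to 88.9% for Hk1 in erythroid cells and 0.943% to 1.90% for Hk3 in osteoclasts. No member past 2-fold in the main setting changed direction in any alternative. For members under 2-fold, changes of direction were not followed. Genes past 2-fold among all genes depend on the pseudocount: with 10, 1 and 50 CPM they were 297, 775 and 106 for microglia, 504, 1220 and 183 for Kupffer cells, 1432, 3070 and 541 for osteoclasts, 1153, 2959 and 414 for monocytes, 1325, 2812 and 447 for neutrophils, 844, 1959 and 295 for progenitors, 1424, 3060 and 442 for erythroid cells, and 220, 427 and 73 for cycling cells. They were 153 for microglia in Leiden clusters, 2166 without globin, mitochondrial and ribosomal protein genes and 773 with TMM for neutrophils, and 2871 for erythroid cells in libraries 1 and 2 alone. Equal weights per library could not be computed for osteoclasts, which have no library with 30 cells. In small classes, values under about 10 CPM rest on few UMIs, whereas Hk1 at 8.65 CPM in tissue macrophages rests on 667. Differences between values under about 10 CPM are small by construction of the pseudocount.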
